A study of Mus musculus with 6 samples.

Results

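The respiratory chain moves electrons from NADH and succinate to oxygen across the inner mitochondrial membrane, and ATP synthase uses the proton gradient so formed to make ATP. Complex I (NADH dehydrogenase) and complex II (succinate dehydrogenase) feed ubiquinone, complex III passes the electrons to cytochrome c, complex IV (cytochrome c oxidase) reduces oxygen, and complex V is the ATP synthase. Most subunits are encoded in the nucleus, and a small set, among them the core of complex IV, is encoded in the mitochondrial genome. In developing B cells, growth and division at the large pre-B stage are known for a high energy demand, and small pre-B cells are the mostly quiescent stage that follows, in which light chain genes rearrange.

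The nuclear-encoded genes of this chain were taken from the count table by symbol. Members were symbols that start with Nduf, Uqcr or Atp5, or with Cox followed by 4, 5, 6, 7 or 8, together with Sdha, Sdhb, Sdhc, Sdhd, Cyc1 and Cycs. Of 117 such rows, 16 carry a pseudogene suffix and were left out, which gave 101 members among 49997 listed symbols. The rule goes by symbol, so Cox6c2, Ndufa11b, Ndufb4c and Ndufs6b stayed in, which GENCODE M21 annotates as processed pseudogenes. The complex was assigned from the symbol alone, so that every Nduf symbol, Ndufa4 among them, counts as complex I. The members were 51 of complex I (8 of them assembly factors), 4 of complex II, 9 of complex III, cytochrome c (Cycs), 19 of complex IV and 17 of complex V. RNA came from small pre-B cells purified by flow cytometry from the bone marrow of C57BL/6 mice aged 6 to 12 weeks, either wild type (WT) or carrying the ΔrsCBE genotype, with 3 libraries each. The interval deleted in ΔrsCBE is not stated in the labels, which name no treatment. The labels do not say whether the 3 libraries of a genotype came from separate mice. The p-values thus measure the spread between these libraries, which may be technical within WT and partly so within ΔrsCBE. There the sex patterns given below differ, so the ΔrsCBE libraries did not all come from the same mouse.

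Total counts ranged from 428106 to 1300805 per library. All 12 pre-B markers examined, among them Cd79a, Pax5 and Rag1, passed the count filter, and their summed level was 13278 to 15399 CPM (counts scaled to the library total) in WT and 14447 to 14879 CPM in ΔrsCBE. Erythroid markers summed to at most 0.792 CPM and T and NK markers to at most 1.58 CPM, and Elane, S100a8, Cd3e and Hbb-bs were at 0 in each library. The myeloid list summed to 53.1 to 83.4 CPM in WT and 54.5 to 68.2 CPM in ΔrsCBE, most of it Itgam. Lyz2 had 0 counts in each WT library and 2, 4 and 2 in those of ΔrsCBE, and S100a9 had 0 against 2, 1 and 3. Csf1r had 4, 0 and 2 counts in WT and 1, 1 and 2 in ΔrsCBE. Markers of cycling cells did move with genotype: 14 of 20 tested passed the test (edgeR, adjusted p under 0.05), all lower. Of all tested genes 1.69% passed, 1.49% lower and 0.205% higher in ΔrsCBE. The sum of all 23 cycling-cell markers was 6767 to 7447 CPM in WT and 2861 to 4606 CPM in ΔrsCBE. By Xist and Y-linked counts the WT libraries and ΔrsCBE replicate 1 have a male pattern and ΔrsCBE replicates 2 and 3 a female one. The part of cycling cells in the members' values was not tested. With sex as a covariate the members' median log2 fold change was -0.15, against -0.08 without it, and 0 members passed the test, though the male ΔrsCBE group then holds 1 library.

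Promoter sequences are shown first, because respiratory chain genes are known as targets of the transcription factors NRF1, GABPA (an ETS factor) and YY1. RefSeq windows (GRCm38.p6) from 250 bases before to 50 after the listed start were at hand for 79 members. The consensus word for NRF1, searched like the others on both strands, occurred in 19 of them (24.1%), against 5.19% of all 27025 genes with a window. Those genes were not matched to the members for expression or base composition. The YY1 word GCCATNTTG occurred in 12 members (15.2%) and 2.90% of all genes, the ETS word CCGGAAGT in 5 (6.33%) and 4.31%, and TATAAA in 8 (10.1%) and 15.7%. Each word was counted by itself, so matches of different words may overlap, and the near-palindromic NRF1 word can match at 1 place on both strands. A match is a description of the letters, and binding was not measured here. Sdha is shown for its repeated NRF1 words, Uqcrc1 and Atp5g3 as members with NRF1 words whose values did not overlap between the genotypes, and Atp5b for its YY1 word and its level, the highest per kilobase. Capitals mark the matched words, read 5′ to 3′ on the gene's strand.
Sdha, chr13:74350191-74350490, minus strand, NRF1 words: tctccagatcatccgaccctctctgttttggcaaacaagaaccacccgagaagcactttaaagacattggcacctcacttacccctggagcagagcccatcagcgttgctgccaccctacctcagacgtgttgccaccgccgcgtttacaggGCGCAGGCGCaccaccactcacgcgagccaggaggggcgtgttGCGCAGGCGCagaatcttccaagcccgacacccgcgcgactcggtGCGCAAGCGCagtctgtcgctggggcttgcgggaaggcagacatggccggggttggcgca
Uqcrc1, chr9:108936398-108936697, plus strand, NRF1 words: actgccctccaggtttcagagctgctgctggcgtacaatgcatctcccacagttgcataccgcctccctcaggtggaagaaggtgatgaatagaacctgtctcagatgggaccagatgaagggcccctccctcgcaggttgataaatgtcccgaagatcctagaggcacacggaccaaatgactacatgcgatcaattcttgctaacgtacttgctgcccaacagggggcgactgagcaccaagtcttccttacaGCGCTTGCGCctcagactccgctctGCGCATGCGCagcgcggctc
Atp5g3, chr2:73911277-73911576, minus strand, NRF1 word: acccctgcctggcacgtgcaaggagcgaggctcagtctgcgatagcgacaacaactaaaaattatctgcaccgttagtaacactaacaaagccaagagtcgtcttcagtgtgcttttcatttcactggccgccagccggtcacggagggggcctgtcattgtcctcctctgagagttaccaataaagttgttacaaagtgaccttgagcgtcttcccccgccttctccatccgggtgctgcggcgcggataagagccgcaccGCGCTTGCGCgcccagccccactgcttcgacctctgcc
Atp5b, chr10:128083057-128083356, plus strand, YY1 word: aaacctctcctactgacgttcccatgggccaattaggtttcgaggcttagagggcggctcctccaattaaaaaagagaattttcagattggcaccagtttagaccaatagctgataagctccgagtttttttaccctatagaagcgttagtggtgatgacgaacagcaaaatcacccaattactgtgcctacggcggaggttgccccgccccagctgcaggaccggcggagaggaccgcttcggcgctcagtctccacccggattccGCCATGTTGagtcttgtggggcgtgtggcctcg

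The comparison asked whether the RNA of respiratory chain genes differs between WT and ΔrsCBE small pre-B cells. No member passed the test: 0 of the 46 tested members reached an adjusted p of 0.05 in edgeR (quasi-likelihood, Benjamini-Hochberg over all 7792 tested genes), where 1.69% passed (0.205% higher and 1.49% lower in ΔrsCBE). At an unadjusted p-value under 0.05 there were 2 members (4.35%), Uqcrc1 and Uqcrq, against 10.2% of all tested genes, a smaller share than the background. With the DESeq2 Wald test 0 members were called and 0 had an unadjusted p-value under 0.05, and 34 members received an adjusted p-value. In that test 1.53% of all genes with an adjusted p-value were called. The median log2 fold change (ΔrsCBE against WT) of the tested members was -0.08, beside 0.01 for all tested genes, and their range was -0.52 to 0.62. This median moved when 1 library was left out and the count filter rerun, which also changed the set of members. It came to -0.142 over 53 members without ΔrsCBE replicate 2, and to -0.0062 over 54 without ΔrsCBE replicate 3. Of the 46 members 25 (54.3%) had a fold change below 0, against 48.2% of all tested genes. The CPM values of the genotypes did not overlap for 3 members (6.52%), Uqcrc1, Uqcrq and Atp5g3, against 16.1% of all tested genes.

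The precision of these values sets what could have been seen. Standard errors of the members' log2 fold changes lay between 0.11 and 0.46. For 40 of the 46 members the 95% interval of the log2 fold change stayed between -1 and 1, which was so for 78.4% of all tested genes, and a change of that size was outside the interval of those members. The other 6 were Ndufa2, Ndufa12, Ndufa13, Ndufaf3, Ndufv3 and Uqcrq, for which the interval reached past -1 or 1. Counts of a tested member summed to between 59 and 2231 over the 6 libraries, with a median of 166, against 241 for all tested genes. The part of this lower depth in the members' smaller shares of low p-values and of non-overlapping values was not tested. Within genotypes the members' counts had a median chi-square per degree of freedom of 1.68, beside 1.42 for all tested genes. This is a ratio of variances, and under counting noise alone its mean is 1 and its median lies below 1. In bulk samples fewer cells with a transcript and less of it per cell cannot be told apart.

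**Figure D1:**
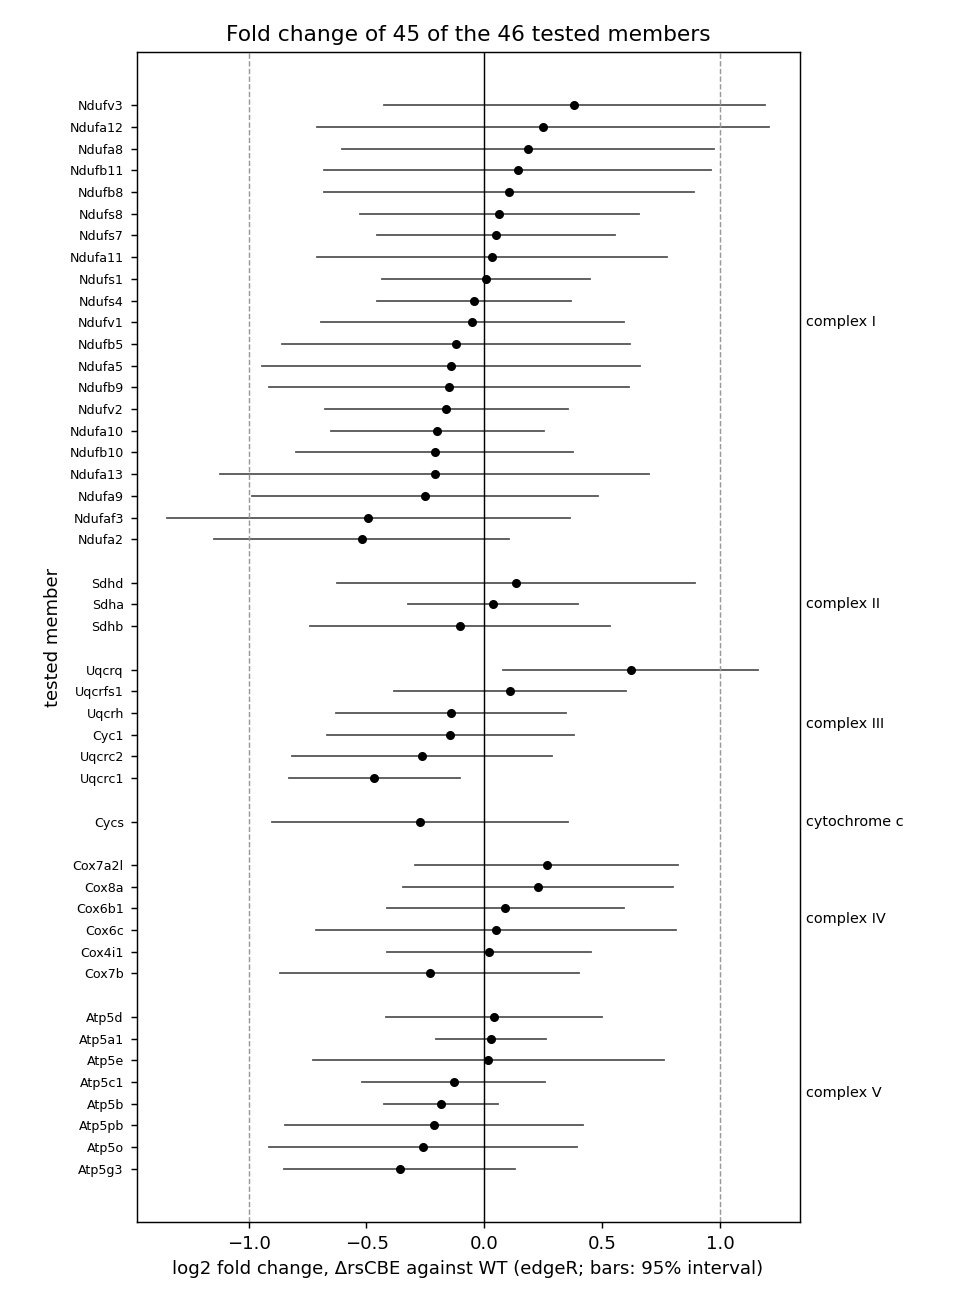
Log2 fold change of 45 of the 46 tested members, ΔrsCBE against WT, from edgeR (points) with its 95% interval (bars), grouped by complex; dashed lines mark -1 and 1. The points lie between -0.52 and 0.62, and the intervals of Uqcrc1 and Uqcrq, on opposite sides, are those that leave out 0.

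The summed level of all 101 members was 2889, 3122 and 2848 CPM in the WT libraries, against 2663, 2987 and 2698 CPM in those of ΔrsCBE, each in order of replicate. The sum of ΔrsCBE replicate 2 was between those of WT libraries, and the other ΔrsCBE sums were lower than each WT sum. As a share of each library's counts the members took in WT 0.286% (0.273% to 0.299%, 95% Wilson), 0.297% (0.281% to 0.314%) and 0.277% (0.268% to 0.286%). In ΔrsCBE the shares were 0.262% (0.251% to 0.273%), 0.290% (0.280% to 0.301%) and 0.264% (0.253% to 0.275%), intervals that cover counting error only. The typical tested member was below its own mean over all libraries in ΔrsCBE replicates 1 and 3, with a median deviation of -0.07 and -0.06 on the log2 scale. It was above it, by 0.07, in ΔrsCBE replicate 2, and by 0.09, 0.11 and 0.04 in WT. ΔrsCBE replicate 2 was also the ΔrsCBE library with the highest sum of cycling-cell markers, 4606 CPM against 3094 and 2861 CPM. That sum was still below those of the WT libraries, 6767 to 7447 CPM. A relation between these markers and the members' sums was not tested.

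**Figure D2:**
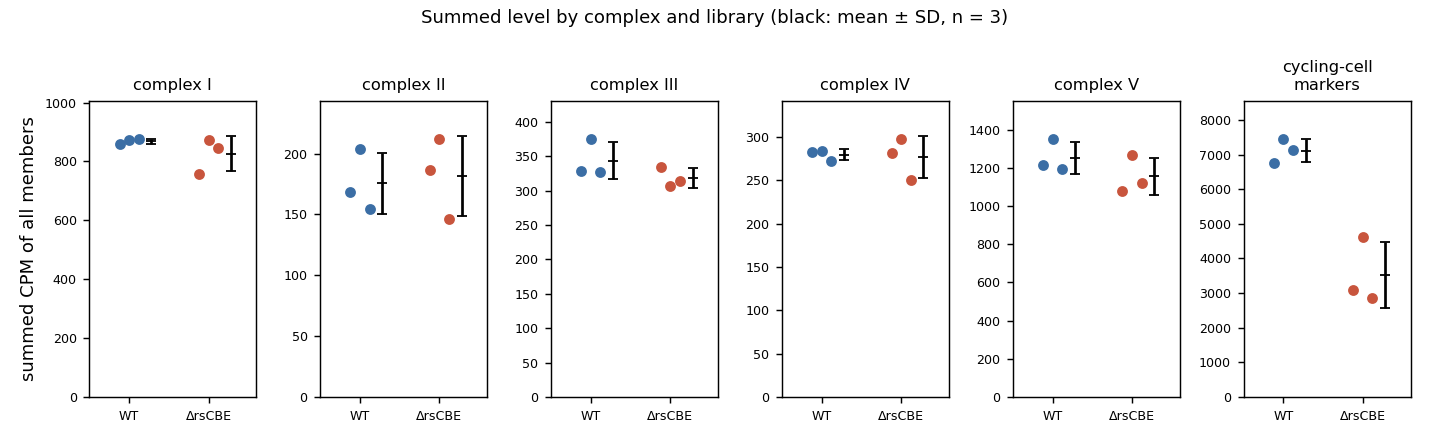
Summed CPM of all members of complexes I to V in each library, and of the 23 cycling-cell markers, by genotype (points: libraries; black: mean ± SD, n = 3; axes start at 0). For each complex the WT and ΔrsCBE points overlap, while the cycling-cell markers lie at 6767 to 7447 CPM in WT and 2861 to 4606 CPM in ΔrsCBE.

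Complex I takes electrons from NADH. Of its 51 members 22 were tested, 9 with a fold change above 0 and 13 below, with a median of -0.09 and 0 past the test. The 6 tested core subunits, among them those that carry the flavin and iron-sulfur centres, had log2 fold changes from -0.16 to 0.06 and a median of -0.02.

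Ndufa2, an accessory subunit of the NADH-oxidising arm, had the lowest fold change of all tested members and the smallest p-value of complex I. It had 55.2, 39.2 and 27.7 CPM in WT and 19.4, 29.97 and 31.6 CPM in ΔrsCBE. WT replicate 3 was lower than 2 of the ΔrsCBE libraries, so the genotypes overlap. The log2 fold change was -0.52 ± 0.30 (SE, edgeR adjusted p 0.603), and it was -0.22 without WT replicate 1, -0.83 without WT replicate 3 and -0.33 without ΔrsCBE replicate 1. Without WT replicate 1 Uqcrc1 (-0.48) was lower than Ndufa2. With the sex covariate, where the male ΔrsCBE group holds 1 library, the value for Ndufa2 was -0.99. That for Ndufa9, another accessory subunit, was lower in this fit, at -1.36, against -0.25 without the covariate. Ndufa2 overlaps Tmco6 on the opposite strand, where the strand setting of the counting is not given. Ndufaf3, an assembly factor and the sole tested one of 8, had 17.8, 9.81 and 15.05 CPM in WT and 13.3, 9.30 and 8.84 CPM in ΔrsCBE. The groups overlap here too, with a log2 fold change of -0.49 ± 0.42 (SE, edgeR adjusted p 0.767). The other accessory subunits tested had log2 fold changes up to 0.38, that of Ndufv3, a small subunit bound to the flavin module. Ndufa1 and Ndufb11 of complex I and Cox7b of complex IV are X-linked, and their summed level was 32.4 to 56.4 CPM in WT, 42.4 CPM in the male ΔrsCBE library and 36.6 to 39.3 CPM in the female ones.

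Complex II oxidises succinate and is also an enzyme of the citric acid cycle. Sdha, the flavoprotein that binds succinate, had 114, 113 and 96.6 CPM in WT and 98.05, 132 and 93.5 CPM in ΔrsCBE. The highest and the lowest of these values are both ΔrsCBE libraries, and the log2 fold change was 0.04 ± 0.18 (SE, edgeR adjusted p 0.977). Sdhb, the iron-sulfur subunit, had 38.9, 34.3 and 26.1 CPM in WT and 39.9, 31.0 and 17.7 CPM in ΔrsCBE. These overlap, and the log2 fold change was -0.10 ± 0.31 (SE). Sdhd, a membrane anchor, varied widely within WT, with 9.73, 51.5 and 24.5 CPM, while ΔrsCBE had 31.5, 27.9 and 26.5 CPM. All ΔrsCBE values of Sdhd lay inside the WT range. The other anchor, Sdhc, did not pass the count filter, with 56 counts in all. It had 6.49, 4.90 and 7.13 CPM in WT against 16.9, 20.7 and 8.84 CPM in ΔrsCBE. Each ΔrsCBE library was above each WT library, on 4, 2 and 9 counts in WT and 14, 20 and 7 in ΔrsCBE. Without a count filter edgeR gave its log2 fold change as 1.26 (unadjusted p 0.011, adjusted 0.405).

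Complex III held both members with an unadjusted p-value under 0.05, and they differed in opposite directions. Uqcrc1 (chromosome 9, 108936633 to 108949623, plus strand, GENCODE M21 on GRCm38) encodes a large core subunit on the matrix side. It had 105, 118 and 101 CPM in WT and 70.2, 73.4 and 88.4 CPM in ΔrsCBE, so each ΔrsCBE library was below each WT library. The means were 108 ± 8.50 and 77.3 ± 9.72 CPM (SD, n = 3). The log2 fold change was -0.47 ± 0.18 (SE), with a 95% interval of -0.83 to -0.10, and it was not past the threshold (edgeR unadjusted p-value 0.0136, adjusted 0.281).

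Uqcrq (chromosome 11, 53427922 to 53430831, minus strand) encodes a small subunit of the membrane-bound complex. It had 26.0, 34.3 and 25.3 CPM in WT and 43.6, 37.2 and 46.7 CPM in ΔrsCBE, again without overlap, with the ΔrsCBE libraries higher. The means were 28.5 ± 5.02 and 42.5 ± 4.85 CPM (SD, n = 3). The log2 fold change was 0.62 ± 0.26 (SE), with a 95% interval of 0.08 to 1.16 (edgeR unadjusted p-value 0.0266, adjusted 0.379). Of the 6 tested members of the complex 4 had a fold change below 0, with a median of -0.14. Uqcrh, the hinge protein at the cytochrome c1 contact, was the most abundant member of the complex per kilobase. It had 48.7, 49.0 and 50.7 CPM in WT and 60.5, 37.2 and 37.9 CPM in ΔrsCBE, where replicate 1 lay above WT and the others below. The electron carriers Cyc1 (cytochrome c1) and Uqcrfs1 (the Rieske iron-sulfur protein) had log2 fold changes of -0.14 and 0.11, with standard errors of 0.25 and 0.24.

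Cytochrome c, the soluble carrier between complexes III and IV that also triggers apoptosis when released, is encoded by Cycs. It had 35.7, 34.3 and 23.8 CPM in WT and 20.6, 29.97 and 22.7 CPM in ΔrsCBE. The groups overlap, and the log2 fold change was -0.27 ± 0.31 (SE, edgeR adjusted p 0.835). It lay between -0.14 (WT replicate 1 left out) and -0.51 (WT replicate 3 left out). Of the 50-base words of its transcript, 28.5% also occur in transcripts of 76 other genes, so its count is uncertain.

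Complex IV reduces oxygen to water. Of its 19 members 6 were tested, 5 with a fold change above 0 and 1 below, with a median of 0.07 and a range of -0.23 to 0.26. Cox4i1, a regulatory subunit, had 61.7, 44.1 and 57.0 CPM in WT and 59.3, 51.7 and 58.1 CPM in ΔrsCBE, with a log2 fold change of 0.02 ± 0.21 (SE, edgeR adjusted p 0.989). The ΔrsCBE values all lay within the WT range. It overlaps Gm20388 on the same strand and Emc8 on the opposite one. Cox8a, a small structural subunit, had 43.8, 29.4 and 26.9 CPM in WT and 27.8, 42.4 and 44.2 CPM in ΔrsCBE, which overlap, with a log2 fold change of 0.23 ± 0.28 (SE). Leaving out 1 library moved this to between 0.026 (WT replicate 3) and 0.46 (WT replicate 1), and with the sex covariate it was -0.22. Cox7a2l, a factor that ties complex III and IV into supercomplexes, had 32.4, 68.7 and 44.3 CPM in WT and 73.8, 56.8 and 35.4 CPM in ΔrsCBE. Its chi-square per degree of freedom within genotypes was 4.48, the highest of the tested members, and the log2 fold change was 0.26 ± 0.27 (SE). It rested on single libraries: it was 0.08 and 0.49 without WT replicates 1 and 2, 0.02 and 0.49 without ΔrsCBE replicates 1 and 3, and 0.68 with the sex covariate. Cox6b1, a subunit on the intermembrane-space side, had 43.8, 34.3 and 34.8 CPM in WT and 42.4, 40.3 and 36.6 CPM in ΔrsCBE, inside the WT range throughout.

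Several complex IV subunits exist as tissue isoforms, and the common forms carried the counts. Cox4i2, the form known from lung, had 1 count over the 6 libraries, against 273 for Cox4i1. The heart and muscle forms Cox6a2, Cox7a1 and Cox8b had 1, 0 and 0 counts, against 43 for Cox6a1, 51 for Cox7a2 and 172 for Cox8a. Of the testis forms Cox6b2 had 8 counts, against 188 for Cox6b1, and Cox7b2 and Cox8c had 0. A count of 0 over the 4998109 counts of the 6 libraries allows up to 3 counts. Cox7a2 was below the count filter, with 14.6, 22.1 and 9.50 CPM in WT and 8.47, 10.3 and 5.05 CPM in ΔrsCBE, and the groups overlap. Cox6a1 had 8.11, 9.81 and 12.7 CPM in WT and 10.9, 7.23 and 2.53 CPM in ΔrsCBE, likewise overlapping. In a single library 3 counts equal 2.38 to 7.36 CPM, so the lower of these values are at the limit. Cox5a, a subunit that also missed the filter (39 counts), had 8.11, 17.2 and 11.1 CPM in WT and 1.21, 7.23 and 6.31 CPM in ΔrsCBE, without overlap. Without a count filter its log2 fold change in edgeR was -1.17 (unadjusted p 0.0399, adjusted 0.732).

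Complex V makes ATP in its F1 head and moves protons through its membrane part. Atp5b and Atp5a1, the beta and alpha subunits that form the catalytic head, were the most abundant members per kilobase of transcript. Atp5b had 423, 530 and 447 CPM in WT and 384, 445 and 393 CPM in ΔrsCBE. ΔrsCBE replicate 2 fell inside the WT range, and the log2 fold change was -0.18 ± 0.12 (SE), with a 95% interval of -0.43 to 0.06 (edgeR adjusted p 0.644). With WT replicate 2 left out it was -0.09. Atp5a1 had 448, 498 and 432 CPM in WT and 413, 503 and 479 CPM in ΔrsCBE, with a log2 fold change of 0.03, a standard error of 0.11 and a 95% interval of -0.21 to 0.26. These are the 2 members measured with the lowest error, and for them a log2 change of 0.5 in either direction lies outside the interval. The 5 F1 subunits had a median log2 fold change of 0.02.

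Outside the F1 head, 3 of 12 members were tested, Atp5g3, Atp5o and Atp5pb, and all had a fold change below 0, with a median of -0.26 and 0 past the test. The summed level of the 12 was 172, 154 and 165 CPM in WT and 125, 143 and 120 CPM in ΔrsCBE, so these sums did not overlap. The sum holds Atp5g3, whose own values did not overlap, and 9 of the 12 were untested. No background was made for such sums, and among single tested genes 16.1% did not overlap. Atp5g3 (chromosome 2, 73908447 to 73911326, minus strand) is a gene for the c subunit, which forms the rotating proton ring. It had 45.4, 46.6 and 44.3 CPM in WT and 38.7, 35.1 and 31.6 CPM in ΔrsCBE, without overlap. The means were 45.5 ± 1.12 and 35.1 ± 3.58 CPM (SD, n = 3), and the log2 fold change was -0.36 ± 0.24 (SE, edgeR adjusted p 0.666). The same c subunit is also encoded by Atp5g1, with 9 counts over the 6 libraries, and by Atp5g2, with 0. Every 50-base word of the Atp5g2 transcript also occurs in transcripts of other genes, so its 0 says nothing about its level.

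Ordered by level per kilobase of transcript, Atp5b (244 ± 29.2 CPM per kilobase in WT, SD, n = 3) and Atp5a1 (186 ± 13.96) stood above every other member. Among the other members given here the next were Uqcrh (90.4 ± 1.95), Atp5c1, the gamma stalk subunit (78.4), Cox4i1 (72.8 ± 12.2), Ndufa2 (71.2 ± 24.1), Uqcrc1 (65.4 ± 5.14), Atp5g3 (63.7 ± 1.57), Cox6b1 (60.9 ± 8.62) and Cox8a (60.7 ± 16.6). Neighbours in this order from Cox4i1 downward differ by less than their spread. Sdha of complex II had 37.1 ± 3.30 and Cycs 10.01 ± 2.09 CPM per kilobase. Lengths are those of the principal transcript of each gene in GENCODE M21, and another transcript in use would shift a gene's place.

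**Figure D3:**
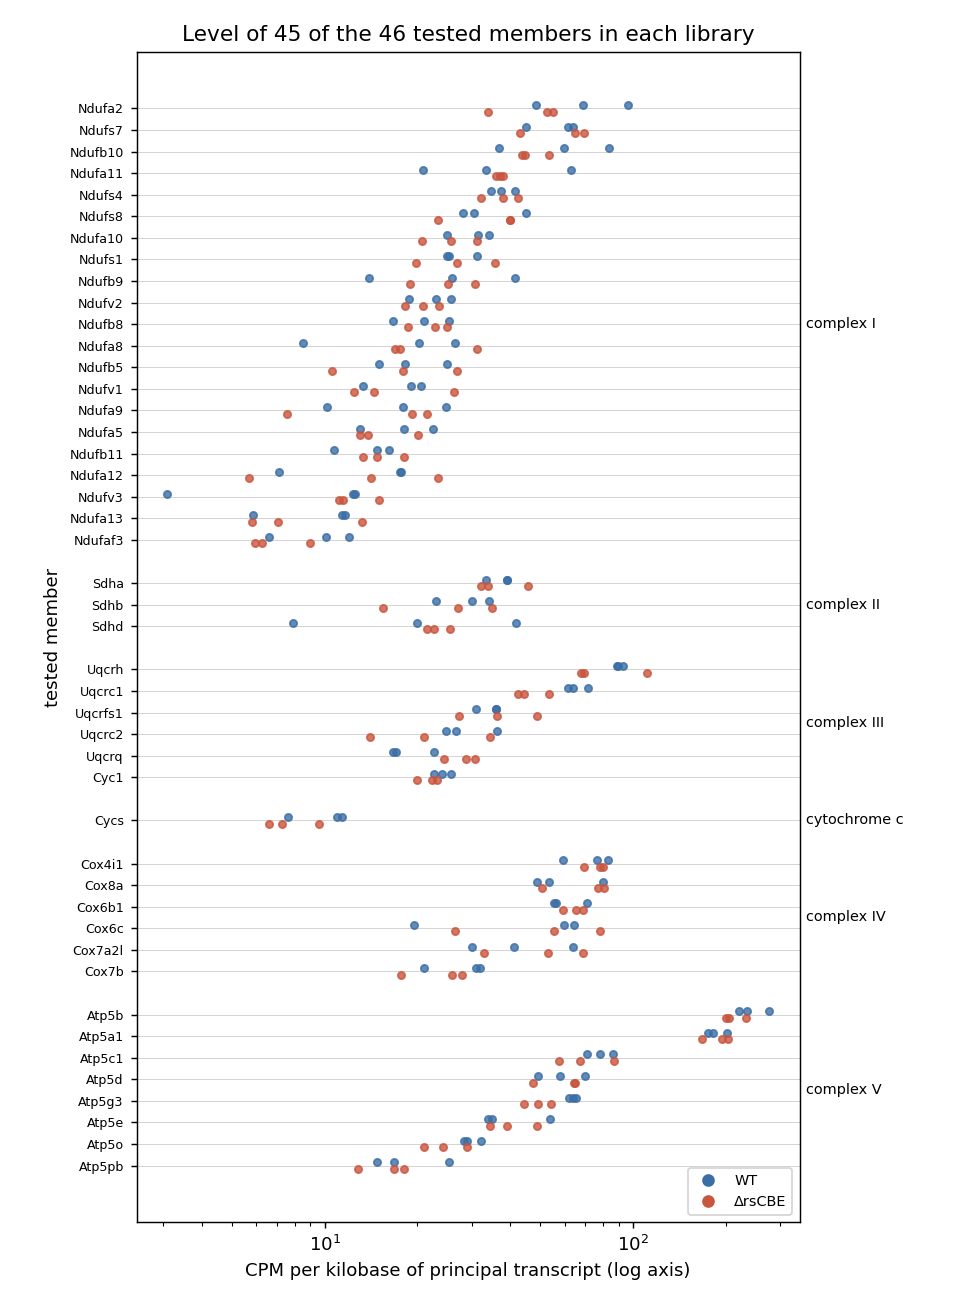
Level of 45 of the 46 tested members in each of the 6 libraries, as CPM per kilobase of principal transcript on a log axis, grouped by complex (blue: WT; red: ΔrsCBE; 1 point per library). Atp5b and Atp5a1 lie apart on the right, and blue and red points intermix in every row except those of Uqcrc1, Uqcrq and Atp5g3.

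For 55 of the 101 members no test was made. Of the 101 members 93 had a count and 8 were at 0 in each library (Atp5g2, Cox7a1, Cox7b2, Cox8b, Cox8c, Ndufa11b, Ndufa4l2 and Ndufb4c). Of these, Ndufa11b and Ndufb4c are annotated as processed pseudogenes. Of the 47 untested members with counts, 4 (8.51%) had values that did not overlap between the genotypes: Sdhc and Cox5a (above), Ndufb6 (21 counts) and Atp5k (7 counts), the last 3 lower in ΔrsCBE. The same held for 6.49% of all 9643 untested genes with counts. Among those with at least 10 counts in all it was 3 of 40 members (7.5%) and 10.9% of genes, so the members' share was near the background. The filter kept long transcripts more often: 8 of 43 members with a principal transcript under 700 bases were tested, 22 of 36 from 700 to under 1500 bases and 16 of 21 with 1500 or more. Per kilobase the median level of these length classes was 13.2, 15.7 and 22.9 CPM, so the short members were also lower after division by length. Sequence shared with other genes had a similar relation. Members of which no 50-base word occurs in another gene's transcript had a median of 18.9 CPM per kilobase (57 genes), those with up to 20% shared words 12.8 (26 genes), and those above 20% 8.55 (17 genes). The last class includes Cox7c (20 counts, 53.0% shared), Atp5l (12 counts, 68.5%) and Ndufs5 (18 counts, 41.2%), and counts of these genes are uncertain. The classes of length and sharing overlap, since genes above 20% had a median length of 540 bases, and their separate parts were not tested.

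**Figure D4:**
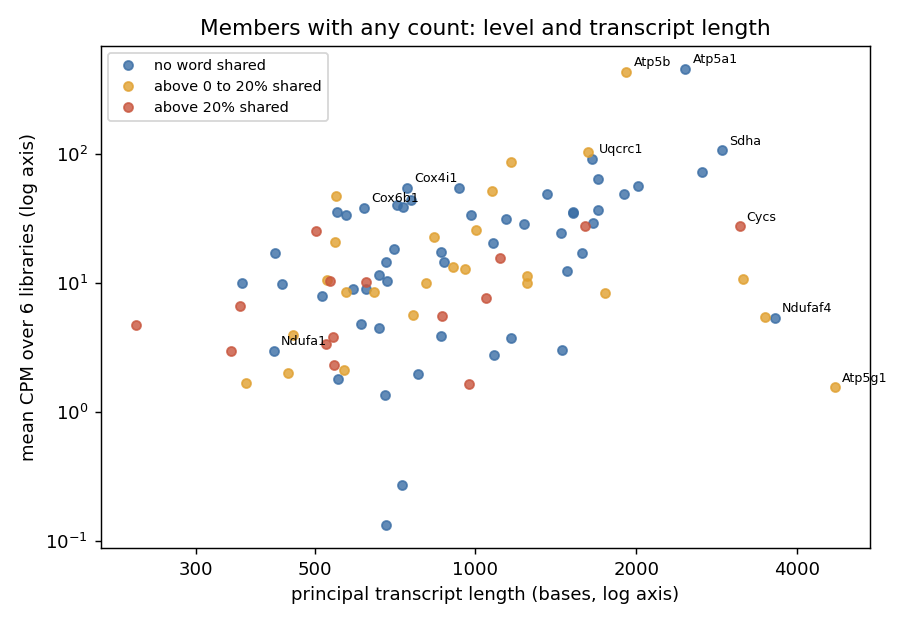
Mean CPM over the 6 libraries against the length of the principal transcript, both on log axes, for members with any count and a GENCODE M21 transcript, coloured by the share of 50-base words found in other genes' transcripts. Most members under 700 bases lie below the levels of the members over 1500 bases, and genes with above 20% shared words are mostly short and low.

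Fold changes were set beside the promoter words. The 9 tested members with an NRF1 word had a median log2 fold change of -0.13 (range -0.47 to 0.19), and the 27 with a window but no NRF1 word had -0.05 (range -0.49 to 0.38), a difference that was not tested. The median was -0.12 for the 7 tested members with a YY1 word and 0.04 for the 2 with an ETS word, and 1 tested member with TATAAA had 0.05. Uqcrc1, Atp5g3 and Sdha, shown above with NRF1 words near the start, had log2 fold changes of -0.47, -0.36 and 0.04. The first and second were shown because their values did not overlap, so these values say nothing about a relation to the word.

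Genes around the chain were taken from lists, and 0 of them passed the test in either direction. Of all tested genes 1.69% passed, a share that gives few calls in lists of this size. Of the mitochondrially encoded subunits 7 of 13 were tested, 5 above and 2 below 0, with a median log2 fold change of 0.33 (range -0.23 to 0.45). The untested ones had few counts over the 6 libraries: ATP6 8, COX2 4, COX3 2, ATP8 1, and ND3 and ND4L 0, against 24605 for COX1. Why these rows are so low was not tested, which limits the reading of the mitochondrial rows. COX1, the catalytic subunit of complex IV, had 4567, 5576 and 4977 CPM in WT and 4960, 5450 and 4875 CPM in ΔrsCBE, while ND5 of complex I had 913, 1403 and 1013 against 1158, 1757 and 1572 CPM, which overlap (log2 fold change 0.44, adjusted p 0.426 by edgeR). Of 41 assembly factors outside the symbol rule 16 were tested, 8 above and 8 below 0, with a median log2 fold change of -0.02. Cox10, which makes the heme of complex IV, and Uqcc1, a complex III assembly factor, had the smallest p-values, with log2 fold changes of -0.39 and -0.25 (edgeR adjusted p-values 0.763 and 0.798).

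The citric acid cycle and pyruvate dehydrogenase genes, which supply NADH and succinate, had a median log2 fold change of -0.21 and 0 past the test. Of 16 tested, 13 (81.25%) were below 0, against 48.2% of all tested genes. Dlat, a subunit of pyruvate dehydrogenase, had means of 40.1 ± 4.27 (WT) and 23.6 ± 0.80 CPM (SD, n = 3), for a log2 fold change of -0.73 ± 0.27 (SE, edgeR adjusted p 0.281). Cs, citrate synthase, had a log2 fold change of -0.33 ± 0.18 (SE, edgeR adjusted p 0.573). Among 45 tested genes of the mitochondrial ribosome, 26 were above and 19 below 0, with a median of 0.04. Mrpl46 and Mrpl52 had the smallest p-values there, with log2 fold changes of 1.03 and -0.47 (edgeR adjusted p-values 0.293 and 0.449). Of 9 tested regulators of mitochondrial genes 4 were above and 5 below 0, and the coactivator Pprc1 and the receptor Esrra had log2 fold changes of 0.53 and 0.55, with standard errors of 0.31 and 0.35. The phosphate carrier Slc25a3 and the ADP/ATP carrier Slc25a5 had -0.25 and -0.18, at adjusted p-values of 0.748 and 0.812 from edgeR.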

How the data were processed

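The authors deposited 1 table of raw read counts (whole numbers) in which each row is a gene symbol and each column a library. Per the submitters' processing notes the tools were Trim Galore 0.6.10, STAR 2.7.11, HTSeq and DESeq2 and the build mm10. The annotation and strand setting are not given in the sources used here. Per the labels' protocols ribosomal RNA was removed and a stranded total RNA kit was used.

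Genes were kept by filterByExpr (minimum count 10), scaled by TMM (factors 0.978 to 1.02) and tested with edgeR 4.0.16 in R 4.3.3 (glmQLFit, robust, and glmQLFTest, genotype as the sole factor). P-values were adjusted by Benjamini-Hochberg over all 7792 tested genes, with a threshold of 0.05. CPM values use TMM-scaled totals of the kept genes. Standard errors derive from the F statistic. The procedure was tested on simulated counts.

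Of 101 members 100 matched GENCODE M21 (GRCm38), which gave lengths, positions and 50-base words. Named members were Cycs, in each complex the 2 with the smallest p-value and the 2 with the highest level per kilobase, isoform sets, and any past the threshold; for lists, those past the threshold or the 2 with the smallest p-value. Members and lists were chosen with earlier results of these data known. Other members named for their place, count or sequence were chosen after their values were seen. Alternatives covered scaling, test, filter, threshold, replicate block, sex, transcript length and each library left out, with DESeq2 1.42.0 as the other test. 1 tested member and 1 marker are not reported here by name.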

Additional observations from a re-analysis of the deposited data

How the results depend on the processing

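The count of members past the threshold was 0 under each of 16 alternatives (scaling, DESeq2, 2 other count filters, a threshold of 0.1, replicate block, sex covariate, length offset and each library left out), and the smallest adjusted p-value of a member lay between 0.272 and 0.795. The number of all genes past the threshold was 132, was 87 with the sex covariate and lay between 59 and 187 with 1 library left out (59 without WT replicate 3 or ΔrsCBE replicate 3). The members' median log2 fold change was -0.08, and it was -0.12 without a count filter, -0.12 with DESeq2, -0.11 with a filter at 1 CPM in 3 libraries, -0.15 with the sex covariate (ΔrsCBE replicate 1 is then the only ΔrsCBE library of the WT libraries' sex), and between -0.142 (without ΔrsCBE replicate 2) and -0.0062 (without ΔrsCBE replicate 3) with 1 library left out. These medians cover different sets: 46 members in the main fit, 93 without a filter and with DESeq2, 88 at 1 CPM, and 52 to 54 with 1 library left out. Without a filter, at 1 CPM and with DESeq2, more low genes thus enter by construction, and the other causes were not tested. In edgeR without a filter, and at 1 CPM, 5 members had an unadjusted p under 0.05, among them Sdhc and Cox5a. With the replicate block 136 genes and 0 members passed, the members' median was -0.08 and Sdha turned to -0.015; same-numbered libraries correlated by at most 0.02 in their deviations, so the numbers are not treated as pairs. With the sex covariate the sign turned for Atp5a1 (-0.14), Cox8a (-0.22), Sdha (-0.11), Sdhb (0.33) and Uqcrh (0.28). With 1 library left out it turned for Atp5a1 (-0.032 to 0.11), Cox4i1 (-0.061 to 0.094), Sdha (-0.14 to 0.12), Sdhb (-0.36 to 0.14) and Sdhd (-0.23 to 0.60). The offset for transcript length was chosen after seeing the data. Depth limits all members below the count filter.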

Other observations

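Rows with a pseudogene suffix, which the symbol rule leaves out, carried counts of their own. Of 16 such rows 8 had any count. Cox5b-ps, which GENCODE M21 annotates as protein-coding despite its suffix, had 231 counts over the 6 libraries. Its namesake Cox5b, a zinc-binding subunit of complex IV, had 29. Ndufs5-ps had 95 counts against 18 for Ndufs5, and Atp5pb-ps had 111 against 132 for Atp5pb, the peripheral stalk subunit. Cox5b-ps had 48.7, 49.0 and 44.3 CPM in WT and 32.7, 66.1 and 42.9 CPM in ΔrsCBE, with a log2 fold change of 0.03 ± 0.25 (SE, edgeR adjusted p 0.983). The log2 fold changes of Atp5pb-ps and Ndufs5-ps were 0.20 and -0.03. Whether reads of the parent genes were counted in these rows was not tested.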
